A study of Danio rerio with 2 samples.

Results

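Gpr85, gpr27 and gpr173 make up the SREB family of orphan G-protein-coupled receptors, and H2B-mGL is the added fluorescent reporter sequence counted beside them in the same sorted cells. These 4 features were taken by name out of 25435 in both libraries. The cells came from adult zebrafish brain and were sorted for eGFP, with dead cells left out by a viability dye. The control library was made from fish of genotype gpr85Gal4/+, with 1 Gal4 allele, and the knockout library from fish of genotype gpr85GAL4/GAL4, with 2. Both groups therefore carried Gal4 at gpr85, and no library without Gal4 was analysed. Each genotype had 1 library, so all comparisons are between libraries, with no test between genotypes. Intervals are exact 95% intervals for counting error only. They leave out differences between fish, sorts and preparations, and they treat unique molecular identifiers (UMIs) as independent.

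The SREB receptors take their name from their strong conservation among vertebrates and their expression in brain. No endogenous ligand is established for them. In mammals, Gpr85 is found in neurons of the hippocampus, cortex and cerebellum, Gpr27 is known from brain and pancreatic islets, and Gpr173 has been studied in neuroendocrine neurons. Gal4 is a yeast transcription factor that switches on transgenes placed behind its binding sequence, so that a Gal4 inserted at a gene marks the cells that use that gene. The labels do not say which transgene gives H2B-mGL, nor how it relates to the eGFP of the sort. The position of the insertion within gpr85 and the cells to which the Gal4 line is limited were not given in the sources used here. The UMI counts come from transcript 3′ ends, so gpr85 counts outside the altered stretch cannot check the knockout. No sequence of a member was at hand, and none is shown.

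Barcodes were kept from 1000 UMIs and 500 genes upward if mitochondrial UMIs did not exceed 15%. This gave 4091 control cells with a median of 2585 UMIs and 3231 knockout cells with a median of 2844 UMIs. Immediate early genes held 0.305% of control and 0.523% of knockout UMIs in cells, and 8 barcodes occurred among the cells of both libraries. Cells were gated on marker genes that did not include the members. Granule-like cells, with at least 5 markers of cerebellar granule cells such as cbln12 and gabra6b, were 58.7% of control and 73.5% of knockout cells. The other gates held immature neuron-like cells (341 and 86), cells with gsg1l and lmx1al (481 and 149), cells with galn (132 and 37), cells with uts1 and otofa (51 and 28), GABAergic neuron-like cells (62 and 22), habenula neuron-like cells (27 and 65) and glia-like cells (23 and 35). All 9 pan-neuronal markers were seen in each of these gates. Their summed level, in CPM (the counts-per-million scale, over all UMIs of the group), was between 6084 and 26080 in the neuronal gates and was 2471 in control and 1432 in knockout glia-like cells.

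Some gates did not hold like cells in the libraries. The GABAergic gate held gad2, slc32a1 and slc6a1b in both, but dlx1a, a forebrain interneuron factor, stood at 166.5 CPM in control but 4.02 CPM in knockout cells. Of the related genes, dlx2a stood at 144.7 and 8.03 CPM, but dlx5a at 301.9 and 184.7 CPM and dlx6a at 238.1 and 184.7 CPM. In the habenula gate, kiss1 had a UMI in 19 of 27 control cells but in 64 of 65 knockout cells, while tac3a was seen in 6 control cells and no knockout cell. In glia-like cells the summed microglial markers were at 36180 and 30240 CPM, and the summed radial glial markers at 8280 and 30070 CPM. Their part in the member values below was not tested.

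Gpr85 was counted in every gate of both libraries, and its level was lower in the knockout library over all cells. The control cells held 1993 gpr85 UMIs, 145 CPM (138.6 to 151.4). The knockout cells held 1215, which is 108 CPM (102 to 115). The log2 ratio of knockout over control was -0.42 (-0.52 to -0.32). The share of cells with a gpr85 UMI was 31.3% (control) and 25.2% (knockout). With each cell thinned to 1000 UMIs it was 12.7% (11.7 to 13.8) and 10.2% (9.19 to 11.3). Transcripts of the targeted gene were thus still counted with 2 Gal4 alleles present.

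The order of gpr85 over the gates differed between the libraries. In the control it ran from GABAergic neuron-like cells (162 CPM) and granule-like cells (157 CPM) through gsg1l lmx1al cells (147 CPM), immature neuron-like cells (139 CPM), galn cells (117 CPM) and uts1 otofa cells (92.2 CPM) to habenula neuron-like cells (71.3 CPM). In the knockout library gsg1l lmx1al cells led at 148 CPM, and granule-like cells came after GABAergic, immature and galn cells at 110 CPM, while habenula neuron-like cells were again lowest among neurons at 66.4 CPM. The intervals of neighbours in this order overlapped throughout, so no adjacent pair was separable. In CPM, granule-like and habenula neuron-like cells were separable in both libraries, but their shares of cells with a gpr85 UMI after thinning were not. Those shares were 12.8% (11.5 to 14.2) and 11.1% (2.35 to 29.2) in the control. In the knockout library they were 10.6% (9.36 to 11.9) and 6.15% (1.70 to 15.0). Control GABAergic neuron-like cells, first by CPM, had the lowest thinned share of the neuronal gates, 8.07% (2.67 to 17.8). Granule-like cells had an interval of 148.1 to 166.6 CPM in the control and 102.6 to 117.6 CPM in the knockout library, against 44.7 to 107.9 CPM and 46.5 to 91.9 CPM in habenula neuron-like cells.

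Glia-like cells gave the background. There gpr85 had 5 control UMIs, 34.7 CPM (11.3 to 81.0), and 16 knockout UMIs, 54.0 CPM (30.9 to 87.7). A gpr85 UMI was seen in 8.70% of 23 control glia-like cells at a median depth of 4817 UMIs and in 7 of 35 knockout glia-like cells at 6446 UMIs, but in no cell of either after thinning. Barcodes with under 100 UMIs, which hold free RNA, had gpr85 at 102 CPM (control) and 86.3 CPM (knockout). Among the neuronal gates, habenula neuron-like cells (71.3 and 66.4 CPM) and control uts1 otofa cells (92.2 CPM) were under that level. Their intervals include it. Free RNA was at most 4.89% of UMIs in control and 4.45% in knockout granule-like cells, taking all glial marker UMIs there as free RNA. The level in those barcodes describes free RNA itself and not its part in a cell, which was not measured for the other gates.

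**Figure D1:**
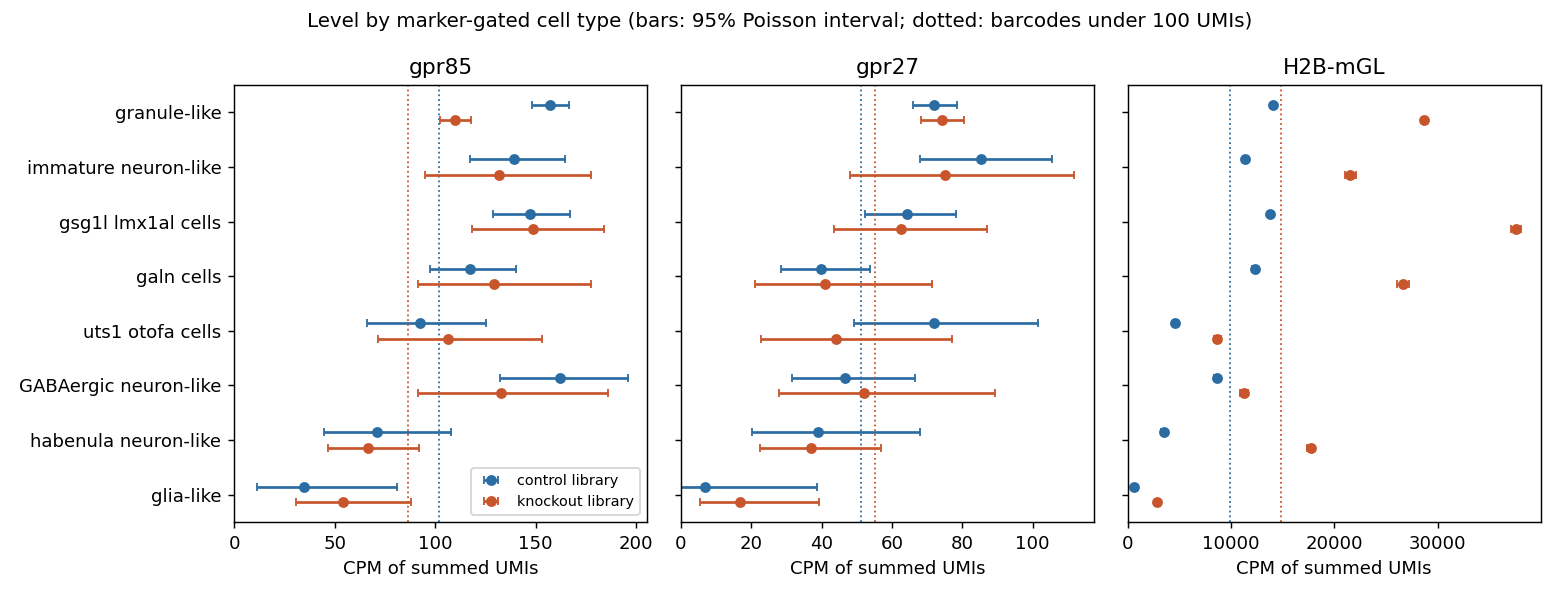
Level in CPM of gpr85, gpr27 and H2B-mGL in 8 marker-gated groups of cells (control library in blue, knockout library in orange; bars are exact 95% Poisson intervals, dotted lines the level in barcodes under 100 UMIs). Granule-like cells show the gpr85 gap of 157 against 110 CPM, gpr27 overlaps between the libraries in every group, and H2B-mGL is higher in the knockout library in every group.

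Among the 8 gates, granule-like cells alone had a gpr85 ratio whose interval lay below 0. Granule cell markers do not set this gate apart from those most like it. They summed to 8462 (control) and 8562 CPM (knockout) in granule-like and 8440 and 8565 CPM in gsg1l lmx1al cells. Immature neuron-like cells had 8127 and 7645 CPM of them, and galn cells 7114 and 7540 CPM. Granule-like cells had 1130 gpr85 UMIs in the control (157 CPM) and 830 in the knockout library (110 CPM), a log2 ratio of -0.52 (-0.65 to -0.39). Cells with gsg1l and lmx1al had 231 and 83 UMIs, 147 and 148 CPM, a log2 ratio of 0.01 (-0.37 to 0.38). The intervals of these ratios lie next to each other without overlap, and the difference between them was not tested. In immature neuron-like cells the log2 ratio was -0.08 (-0.62 to 0.42), in galn cells 0.14 (-0.42 to 0.68), in uts1 otofa cells 0.21 (-0.53 to 0.93) and in GABAergic neuron-like cells -0.29 (-0.90 to 0.29). No difference was detectable at this depth in those gates. The intervals of immature neuron-like, uts1 otofa and GABAergic neuron-like cells also include the granule-like ratio, and that of galn cells ends short of it. Cells that passed no gate, with medians of 1583 and 1598.5 UMIs, had 139 and 90.3 CPM and a log2 ratio of -0.63 (-0.9998 to -0.26).

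Within the granule-like gate the CPM ratio was not the same in all subsets. Each subset was defined by at least 2 of 3 genes that mark a kind of granule cell. In cells with SYT2, kcnj3b and scn4ba, 82 control and 104 knockout cells, gpr85 stood at 181 CPM from 58 UMIs and at 80.8 CPM from 32 UMIs. The log2 ratio there was -1.17 (-1.84 to -0.52). Without thinning, the share of these cells with a gpr85 UMI was 42.7% (31.8 to 54.1) in the control and 23.1% (15.4 to 32.4) in the knockout library. These intervals overlapped only narrowly. The knockout cells had the higher median depth, 3258.5 against 2932.5 UMIs. The shares after thinning, from 11 control and 13 knockout cells with a gpr85 UMI, did not show this drop. They were 13.4% (6.89 to 22.7) in the control and 12.5% (6.83 to 20.4) in the knockout library. In cells with phldb1a, kcnd3 and inhbb, 261 and 219 cells, it stood at 141 and 139 CPM, a log2 ratio of -0.01 (-0.38 to 0.35). The CPM ratio intervals of these subsets did not overlap. H2B-mGL was 2.99-fold higher in the first subset, at 7816 and 23350 CPM, and 2.27-fold higher in the second, at 13390 and 30340 CPM. In cells with pax2a, pax5 and en1a the log2 ratio was -0.46 (-1.41 to 0.43), and in cells with nr2f1a, matn4 and etv4 it was -0.67 (-1.53 to 0.25), with no difference detectable in either.

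Gpr27 did not differ between the libraries beyond counting error. The control cells held 878 gpr27 UMIs, 63.8 CPM (59.7 to 68.2). The knockout cells held 747, which is 66.6 CPM (61.9 to 71.55), with a log2 ratio of 0.06 (-0.08 to 0.20). The share of cells with a UMI was 16.7% and 18.3%, or 6.11% and 6.84% after thinning. The interval leaves room for a difference of up to 1.15-fold higher. In granule-like cells gpr27 was at 72.0 and 74.2 CPM, a log2 ratio of 0.04 (-0.13 to 0.22). In none of the 8 gates did the interval of the gpr27 ratio leave out 0.

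Across the gates gpr27 was highest in immature neuron-like cells, at 85.3 CPM (68.1 to 105) for control and 75.1 CPM (48.1 to 112) for knockout cells. Granule-like cells followed in both. Galn cells were at 39.7 and 40.9 CPM, habenula neuron-like cells at 38.9 and 36.9 CPM and GABAergic neuron-like cells at 46.7 and 52.2 CPM. These values were under the free RNA level of 51.3 and 55.3 CPM, as was that of knockout uts1 otofa cells (44.1 CPM). The intervals of all these gates include that level, so none was separable from it. Glia-like cells had 1 and 5 gpr27 UMIs, 6.94 and 16.9 CPM. Neighbours in this order overlapped in both libraries. The control intervals of granule-like cells (66.0 to 78.5 CPM) and galn cells (28.5 to 53.9 CPM) did not.

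Gpr173 was seen in few cells. It had 17 UMIs in 17 control cells, 1.24 CPM (0.720 to 1.98), and 7 UMIs in 7 knockout cells, 0.624 CPM (0.251 to 1.29). Of these, 12 and 4 UMIs were in granule-like cells. The log2 ratio of -0.99 (-2.50 to 0.36) included 0, and barcodes under 100 UMIs held gpr173 at 0.635 and 1.37 CPM. Granule-like cells held it at 1.67 CPM (0.862 to 2.92) in the control and 0.530 CPM (0.144 to 1.36) in the knockout library, intervals that overlap.

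H2B-mGL was the most counted of all 25435 features in the sorted cells of both libraries. It had 166112 UMIs in control cells, 12080 CPM, and 286288 in knockout cells, 25530 CPM. Knockout cells thus had 2.11 times the control level (2.101 to 2.13), a log2 ratio of 1.08. Among 13120 features with at least 100 UMIs over both libraries, 5.79% were past 1.5-fold higher and 7.11% past 1.5-fold lower in the knockout library. Of the 3 members in that set, H2B-mGL was past 1.5-fold higher and gpr85 and gpr27 were not past 1.5-fold. The H2B-mGL ratio stood above 97.9% of those features and the gpr85 ratio above 12.3%. In granule-like cells, where 4.09% of 10865 features were past 1.5-fold higher and 6.09% lower, the H2B-mGL ratio stood above 99.0% and the gpr85 ratio above 7.94%.

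All 8 gates had a higher H2B-mGL level in the knockout library, by unequal amounts. Granule-like cells had 14040 and 28650 CPM, 2.04-fold, and gsg1l lmx1al cells 13780 and 37570 CPM, 2.73-fold. Galn cells had 12280 and 26630 CPM, 2.17-fold, and immature neuron-like cells 11400 and 21550 CPM, 1.89-fold. The uts1 otofa cells had 4540 and 8694 CPM, 1.92-fold (1.80 to 2.03). Of these neurons, gsg1l lmx1al cells (2.67 to 2.78) lay above the 2.11-fold ratio of all cells (2.101 to 2.13). The others ran from 1.89-fold to 2.17-fold, nearer to that ratio.

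In summed CPM, GABAergic neuron-like cells, habenula neuron-like cells and glia-like cells lay farther away. In GABAergic neuron-like cells H2B-mGL was at 8604 and 11250 CPM, 1.31-fold (1.25 to 1.37). There 1 control cell held 698 of 5528 UMIs and 1 knockout cell 734 of 2801, which the interval does not cover. The medians per cell in this gate were 19.0 and 59.1 UMIs per 10000 other UMIs. In habenula neuron-like cells it was at 3473 and 17700 CPM, 5.10-fold (4.78 to 5.43). With cells of at least 2 kiss1 UMIs alone, 17 control and 64 knockout cells, it was at 5389 and 18440 CPM, a log2 ratio of 1.77 in place of 2.35. In glia-like cells it was at 652 and 2803 CPM, from 94 and 830 UMIs, and 1 knockout cell held 353 of these. Barcodes under 100 UMIs had 9908 and 14830 CPM, above the GABAergic neuron-like, uts1 otofa and glia-like levels in both libraries and above the habenula level in the control.

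**Figure D2:**
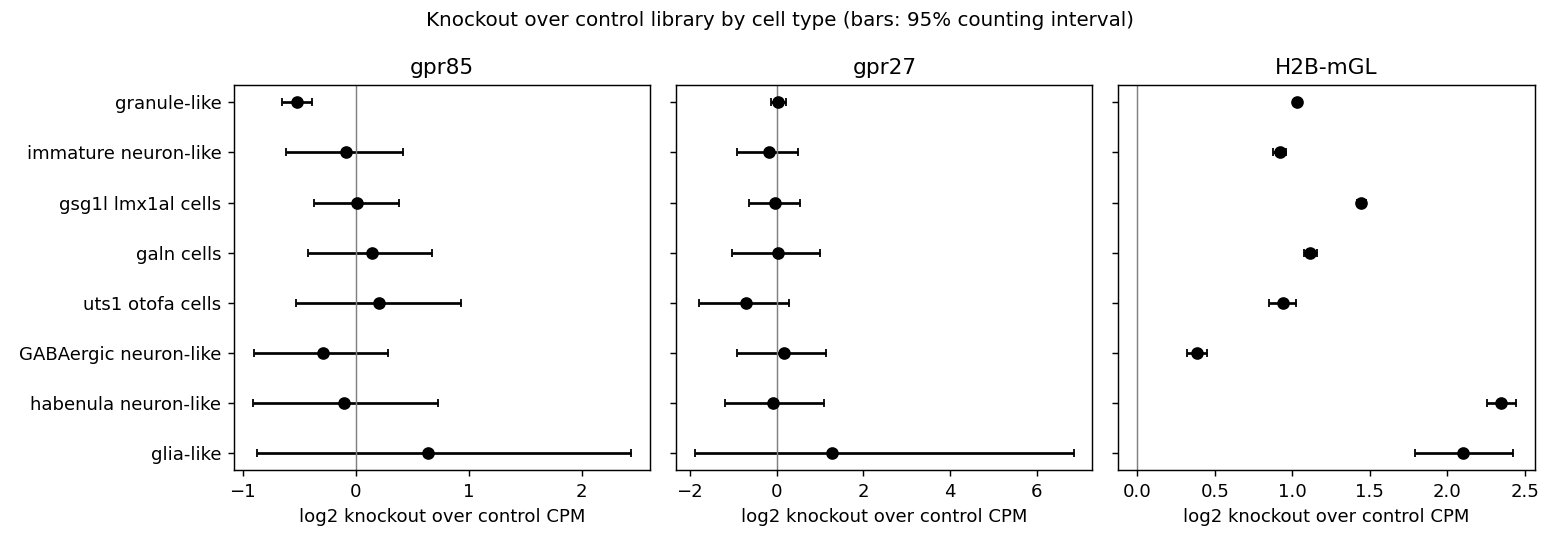
Log2 ratio of knockout over control CPM for gpr85, gpr27 and H2B-mGL in the 8 groups, with bars for exact 95% counting intervals and a vertical line at 0; the horizontal axes differ between panels. Only the granule-like interval of gpr85 lies below 0, at -0.52, every gpr27 interval includes 0, and every H2B-mGL interval lies above 0.

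In summed CPM, most steps in the order of the reporter over the gates were beyond counting error, unlike those of the receptors, which had far fewer UMIs. In the control, granule-like and gsg1l lmx1al cells overlapped at the top, and each further step, through galn, immature neuron-like, GABAergic neuron-like, uts1 otofa and habenula neuron-like to glia-like cells, was larger than counting error. In the knockout library gsg1l lmx1al cells led. Counting error leaves out the spread between cells. By the median per cell, relative to other UMIs, uts1 otofa cells lay above GABAergic neuron-like cells in both libraries. The medians were 44.8 and 19.0 in the control and 88.9 and 59.1 in the knockout library. This reverses their order in summed CPM. Control galn and immature neuron-like cells had close medians, 75.4 and 73.9. The other control gates kept their order. Per 1000 reporter UMIs, gpr85 UMIs numbered 11.2 in control and 3.84 in knockout granule-like cells, and 10.7 and 3.95 in gsg1l lmx1al cells. In uts1 otofa cells they numbered 20.3 and 12.3, and in GABAergic neuron-like cells 18.8 and 11.8. The gpr85 count per reporter count was lower in the knockout library in all 8 gates. It was higher in uts1 otofa, GABAergic neuron-like, immature neuron-like and glia-like cells than in granule-like cells of the same library. It was highest in glia-like cells, at 53.19 in control and 19.28 in knockout cells, where the reporter level was lowest.

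Per cell, the reporter was given as H2B-mGL UMIs per 10000 other UMIs. In granule-like cells the median was 102 for control cells, with the middle 80% from 4.48 to 370, and 275 for knockout cells, with the middle 80% from 49.3 to 643. The highest cells held 1121 and 1733. Gsg1l lmx1al cells had medians of 101 and 386, galn cells 75.4 and 266, immature neuron-like cells 73.9 and 214, uts1 otofa cells 44.8 and 88.9, GABAergic neuron-like cells 19.0 and 59.1, habenula neuron-like cells 11.5 and 164, and glia-like cells 0 and 1.01. The knockout median was higher in each gate, and the middle 80% of cells overlapped between the libraries in all 8. After thinning, the variance of H2B-mGL UMIs over granule-like cells was 16.1 (control) and 15.9 (knockout) times the mean, against 1.24 and 1.17 times for gpr85 and 1.14 times for gpr27 in the control. A Poisson spread gives 1. For spread beyond that, the ratio rises with the mean at a given relative spread. The control means were 14.7 UMIs for H2B-mGL, 0.155 for gpr85 and 0.0771 for gpr27. The ratios therefore do not rank the relative spread of reporter and receptors.

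**Figure D3:**
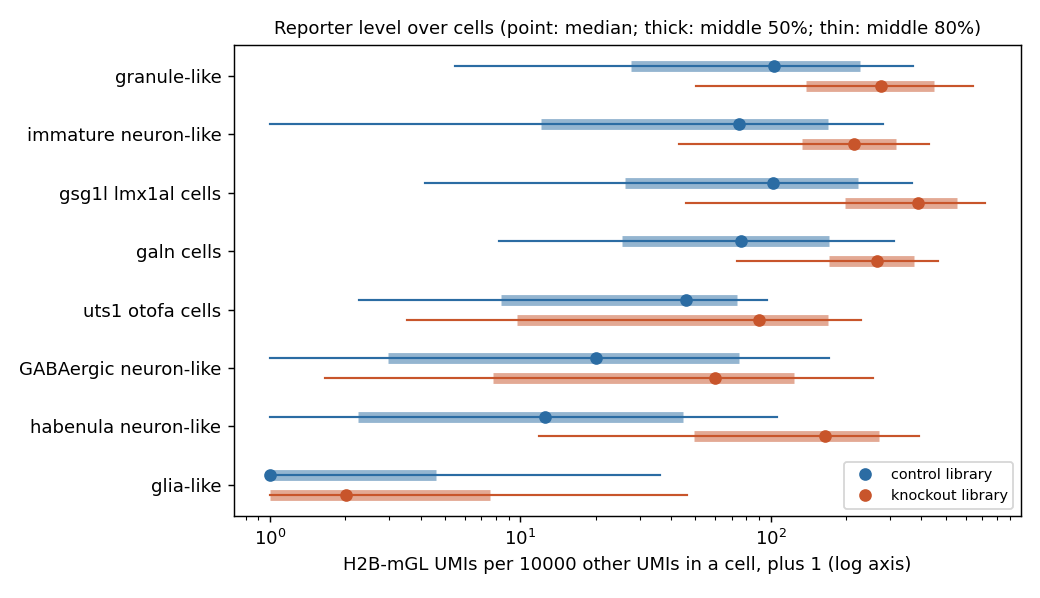
Reporter level per cell, as H2B-mGL UMIs per 10000 other UMIs plus 1 on a log axis, in the 8 groups of each library (points are medians, thick bars the middle 50% and thin bars the middle 80% of cells). The knockout library lies to the right in each group, as in granule-like cells with medians of 102 and 275, and the ranges overlap.

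Some sorted cells had no reporter UMI. The control library had 378 of them (9.24% of its cells) and the knockout library 85 (2.63%). Among granule-like cells they were 164 of 2400 (6.83%) and 22 of 2375 (0.926%), and among glia-like cells 13 of 23 and 13 of 35. The control granule-like cells without a reporter UMI still held gpr85, at 178 CPM of other UMIs (140.8 to 223) from 77 UMIs, against 158 CPM (149 to 168) in those with one. In the knockout library the values were 95.3 CPM (38.3 to 196) from 7 UMIs and 113 CPM (106 to 121). Neither pair differed beyond counting error. Gpr27 in the control was at 44.0 CPM (26.5 to 68.7) from 19 UMIs without and 74.95 CPM (68.5 to 81.8) with a reporter UMI, intervals that overlapped only narrowly.

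To relate receptor to reporter per cell, granule-like cells of each library were ranked by reporter level and divided into 5 equal groups. In the control the gpr85 level, in CPM over UMIs other than H2B-mGL, was 161, 139, 134, 154 and 219 from the lowest to the highest quintile. The lower 4 quintiles overlapped one another, and the interval of the top one (194 to 247) lay above all of theirs. In the knockout library it was 91.7, 93.6, 119, 133 and 136, lower in the first 2 quintiles than in the last 2. The control log2 ratio of highest over lowest quintile was 0.44 (0.18 to 0.71), from 271 and 217 UMIs, and the knockout ratio 0.57 (0.24 to 0.90), from 167 and 145 UMIs. That was 1.36-fold and 1.49-fold, under the 1.5-fold mark, which 6.27% of 8783 control and 11.5% of 8801 knockout genes passed upward, and 7.78% and 11.5% downward.

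By this ratio gpr85 stood above 87.9% (control) and 88.0% (knockout) of genes, so it was in the upper part of the distribution but within its middle 95%, which ran from -0.94 to 0.81 and from -1.14 to 0.95. Gpr27 had quintile values of 68.3, 72.7, 65.5, 78.5 and 81.6 CPM in the control and 76.5, 65.5, 82.9, 69.2 and 90.6 CPM in the knockout library. Its log2 ratios of 0.26 (-0.17 to 0.68) and 0.24 (-0.14 to 0.63) included 0. For gpr173 the quintiles of granule-like cells held at most 3 UMIs each. With cells of all gates ranked together, control gpr27 was at 50.45 CPM (42.55 to 59.4) in the lowest and 74.0 CPM (63.2 to 86.0) in the highest quintile. The knockout values were 55.9 CPM (46.9 to 66.1) and 83.0 CPM (70.2 to 97.55). Neither pair overlapped, and the part of cell type was not tested.

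**Figure D4:**
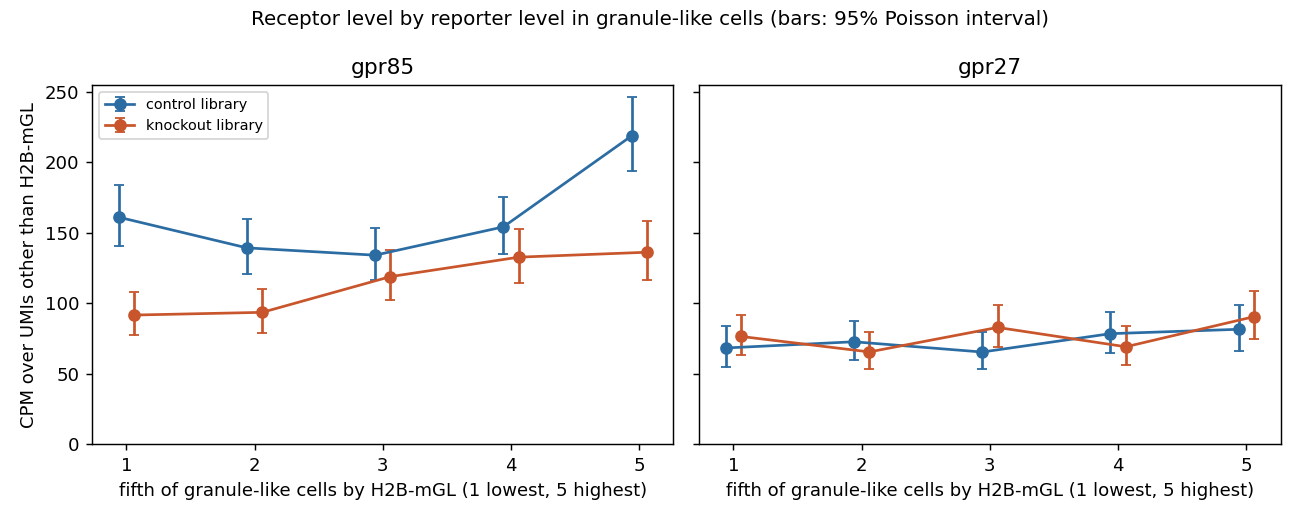
Level of gpr85 and gpr27 in granule-like cells by quintile of reporter level (1 lowest, 5 highest), in CPM over UMIs other than H2B-mGL, with exact 95% Poisson intervals. In the control library gpr85 is near 134 to 161 CPM up to quintile 4 and 219 CPM in quintile 5, in the knockout library it goes from 91.7 to 136 CPM, and gpr27 shows no trend beyond its intervals.

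The same relation seen from the receptor side was small against the spread of cells. Control granule-like cells thinned to equal depth had a median reporter level of 97.6 with no gpr85 UMI (2044 cells), 125 with 1 (310 cells) and 198 with 2 or more (41 cells). In the knockout library the medians were 268, 306.5 and 397, over 2117, 227 and 31 cells. The middle 50% of the cells with none, 26.7 to 222 in the control, covered the medians of the others. Spearman's coefficient across cells was 0.043 (control) and 0.064 (knockout) for gpr85. For comparison, snap25a (a synaptic vesicle fusion protein) gave 0.104 and 0.096 and zic1 (a granule cell transcription factor) 0.076 and 0.119. The pan-neuronal marker elavl4 gave lower values than gpr85, 0.025 and 0.039. These are weak coefficients in sparse counts over cells of 1 library each, and are given as a description.

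Other quantities moved along the reporter quintiles too. The share of UMIs from immediate early genes went from 0.245% to 0.297% from the lowest to the highest quintile of control granule-like cells and from 0.315% to 0.689% in the knockout library. Without the 10% of cells with the highest share, the gpr85 ratios were 0.40 and 0.53. Cells with SYT2, kcnj3b and scn4ba made up 4.17% of the lowest and 1.04% of the highest control quintile, and 6.32% and 2.95% in the knockout library. Cells with nr2f1a, matn4 and etv4 made up 7.37% and 1.05% in the knockout library. The part of this mix in the gpr85 ratio was not tested. A gate with 1 more marker gave 0.26 (-0.01 to 0.53) in the control, an interval that reaches 0, and 0.49 in the knockout library. With 3 groups of cells in place of 5 the ratios were 0.26 (0.05 to 0.47) and 0.55 (0.30 to 0.79). Shares of cells with a gpr85 UMI after thinning gave 0.29 (-0.11 to 0.70) and 0.50 (-0.03 to 1.04).

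In gsg1l lmx1al cells the control quintiles had no trend in gpr85, with 169 CPM in the lowest and 163 CPM in the highest. The knockout quintiles, of 29 or 30 cells, had 63.2 CPM (23.2 to 137.5) from 6 UMIs in the lowest and 170 CPM (97.3 to 276) from 16 UMIs in the highest, intervals that overlap. Their next highest quintile, at 234 CPM (154 to 341) from 27 UMIs, lay clear of the lowest, and Spearman's coefficient over these 149 cells was 0.174. In immature neuron-like cells gpr85 was at 154 and 115 CPM in the control and at 68.7 and 96.3 CPM, from 5 UMIs each, in the knockout library. The intervals of each of these immature pairs overlapped.

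Cells with both receptors were counted as well. After thinning granule-like cells to 1000 UMIs, both gpr85 and gpr27 were seen in 33 control cells where independence gives 24.3, a ratio of 1.36 (0.93 to 1.91). In the knockout library both were seen in 18 cells where independence gives 16.8, a ratio of 1.07 (0.63 to 1.69). Neither ratio differed from 1 beyond counting error. Without thinning, where deeper cells show more of both, the ratios were 1.19 (1.01 to 1.39) and 1.08 (0.89 to 1.29).

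Many genes had a larger fold between the reporter quintiles of granule-like cells than the receptors did. Among 8402 genes with at least 100 UMIs in each library, 134 were past 1.5-fold higher and 248 past 1.5-fold lower in the highest quintile of both libraries. In each library alone, 6.27% (control) and 11.5% (knockout) of genes were past 1.5-fold higher, and 7.78% and 11.5% lower. Genes with few UMIs can pass that mark by counting error, and the number doing so in both libraries was not estimated. Spearman's coefficient between the libraries across genes was 0.415, genes not being independent replicates. The gene si:ch211-196h16.5 had the highest ratio, with 8.91, 30.3, 72.6, 103.5 and 133 CPM over the control quintiles and 34.8, 105, 142, 173 and 191 CPM over the knockout quintiles. Its value rose at every step in both libraries, though neighbouring intervals overlapped from the fourth control and the third knockout quintile on. Its log2 ratios were 3.90 (3.06 to 4.88) and 2.46 (2.03 to 2.91). It was also the gene whose level over the gates was most like that of H2B-mGL, and it stood at 67.7 CPM in control and 122 CPM in knockout granule-like cells. The files give it no other name.

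Other genes high with the reporter were ucn3l, a urocortin peptide (1.81 and 1.99), actb1, a cytoplasmic actin (1.26 and 1.47), and pde8a, a cyclic nucleotide phosphodiesterase (1.36 and 1.26), as log2 ratios in the control and knockout library. Actb1 went from 244 to 583 CPM in the control and from 283 to 782.5 CPM in the knockout library over the quintiles, higher at each step. The genes lowest with the reporter were ptprub, a receptor tyrosine phosphatase (-2.75 and -2.62), edil3a, an extracellular matrix protein (-2.49 and -2.72), tenm3, a teneurin adhesion protein (-2.93 and -2.42), sorcs3b, a sorting receptor (-2.66 and -2.43), and robo1, a Slit receptor (-2.31 and -2.28). Control edil3a was lower from the third quintile on, and knockout edil3a at each step. Edil3a went from 272 to 48.5 CPM over the control quintiles and from 488 to 74.25 CPM over the knockout quintiles. It was highest in control galn cells, at 1613 CPM, where the reporter was at 12280 CPM. Control GABAergic neuron-like and uts1 otofa cells followed at 691 and 324 CPM, with the reporter lower, at 8604 and 4540 CPM. Habenula neuron-like cells, at 3473 CPM of reporter, had 142.5 CPM. Control ptprub was at 1120 CPM in uts1 otofa but 12.6 CPM in galn cells. Control tenm3 was at 2754 CPM in habenula neuron-like, 474.9 CPM in galn and 95.45 CPM in gsg1l lmx1al cells. The relation across gates was not tested.

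**Figure D5:**
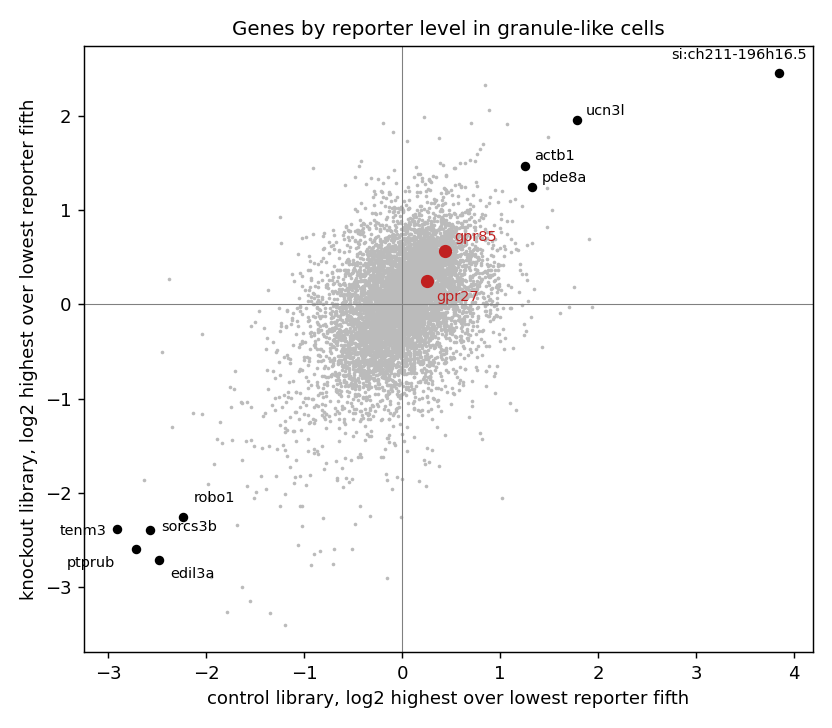
Log2 ratio of the highest over the lowest reporter quintile of granule-like cells for 8402 genes, control library on the horizontal and knockout library on the vertical axis, with 9 named genes in black and the receptors in red; 0.5 UMIs were added to each sum here. Si:ch211-196h16.5 lies far out at the upper right, ptprub, edil3a, tenm3, sorcs3b and robo1 lie at the lower left, and gpr85 (0.44 and 0.57) and gpr27 (0.26 and 0.24) lie inside the cloud.

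Across the gates, genes with a pattern like a member's were sought among 11064 genes by Pearson's r of log2(CPM + 10) over 8 gates, taking the lower r of the 2 libraries. For gpr85 they were syt3 (a synaptotagmin; r of 0.962 for control and 0.942 for knockout gates), myt1la (a neuronal zinc finger factor; 0.934 and 0.943), FO904844.1 (0.966 and 0.926), znf330 (0.939 and 0.919) and syngap1b (a synaptic Ras GTPase activator; 0.916 and 0.959). For gpr27 they were si:dkey-40m6.8 (0.961 and 0.964), uprt (0.954 and 0.977), erc2, a presynaptic active zone protein (0.965 and 0.943), srpk3 (0.980 and 0.936) and dhx38 (0.956 and 0.935). For H2B-mGL they were si:ch211-196h16.5 (0.954 and 0.952), armc9 (0.949 and 0.952), basp1, a growth cone protein (0.961 and 0.945), setd1a, a histone methyltransferase (0.977 and 0.942), and si:ch211-261n11.7 (0.945 and 0.937). All 15 were lowest in glia-like cells of the control.

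Among the members themselves, r over 8 gates was 0.960 (control) and 0.707 (knockout) for gpr85 with H2B-mGL, and 0.838 and 0.806 for gpr85 with gpr27. Over the 7 neuronal gates, without glia-like cells, the first pair had 0.868 and 0.286 and the second 0.392 and 0.543. The gates of a library share its preparation and its free RNA, and the values are descriptions.

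Orphan receptors and signalling genes were read against all 13120 features, of which 5.79% were past 1.5-fold higher and 7.11% lower. The list named orphan receptors was not limited to receptors without a known ligand. Of its 66 genes, 48 were among the features and 23 had at least 100 UMIs. Of these 23, 3 were past 1.5-fold higher in the knockout library and 2 lower, shares of 13.0% and 8.7%, with a median log2 ratio of -0.07 against -0.03 for all features. The most counted were gpr139 (67.4 and 269 CPM), gpr158a (104 and 86.3 CPM), gpr107 (91.5 and 87.4 CPM) and lgr4 (57.6 and 68.8 CPM). Gpr139, a receptor of the habenula in mammals, stood at 2.23 and 7.68 CPM in granule-like cells, and habenula neuron-like cells, which the gate counts at 0.660% and 2.01% of cells, differed in number in the same direction; their part in the ratio was not tested. The others past 1.5-fold were gpr78b (5.45 and 28.7 CPM), gpr26 (8.14 and 13.4 CPM), gpr153 (60.2 and 23.3 CPM) and gpr37b (25.9 and 9.45 CPM), of which gpr153 was also lower in granule-like cells, at 39.1 and 17.9 CPM. By UMIs over all cells, each SREB receptor was ranked on its own against the 48 listed receptors, without the other SREB receptors. Gpr85 had rank 1 in the control and rank 2 in the knockout library, while gpr27 had rank 4 and rank 5 and gpr173 rank 29 and rank 38. The cells were sorted for eGFP from fish with Gal4 at gpr85, so these ranks do not describe the brain as a whole.

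The same shares of all features, 5.79% higher and 7.11% lower, stand beside the next lists, in which a call is 1 gene or none per direction. Of 8 arrestins and receptor kinases with enough UMIs, which switch off active receptors, none was past 1.5-fold higher and arr3a, with 80 and 30 UMIs, was past 1.5-fold lower. Arrb2b, a beta-arrestin, stood at 305 and 343.5 CPM, and the kinases grk5l, grk3 and grk6 at 165 and 139, 109 and 118, and 81.35 and 105 CPM. Of 13 G protein alpha subunits, gnai3 was past 1.5-fold higher (21.7 and 39.6 CPM, but 10.0 and 9.27 CPM in granule-like cells) and gnat1 lower (78 and 23 UMIs). The most counted subunit, gnao1a, stood at 852 and 919 CPM, and gnas, gna11b and gnai1 followed with log2 ratios of -0.10, 0.01 and -0.40. Of 20 synaptic scaffold, neurexin and neuroligin genes, none was past 1.5-fold in either direction, with a median log2 ratio of -0.14. Nrxn3a stood at 2603 and 2458 CPM and nrxn1a at 2441 and 2435 CPM, and nrxn2a and nlgn3a had log2 ratios of -0.08 and -0.04.

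The genes beside gpr85 on the chromosome were looked at because the Gal4 alleles sit there. Of 10 annotated genes, 5 on each side, 5 were in the files and 4 had at least 100 UMIs. Dock4b, a guanine nucleotide exchange factor, was at 199 CPM (control) and 321 CPM (knockout), a log2 ratio of 0.69 (0.62 to 0.76), and in granule-like cells at 234 and 371 CPM. Foxp2, a forkhead transcription factor, was at 30.5 and 16.1 CPM, a log2 ratio of -0.92 (-1.18 to -0.67), and in granule-like cells at 21.6 and 15.4 CPM. Ifrd1 was at 79.0 and 93.5 CPM, a log2 ratio of 0.24 (0.12 to 0.37), and tmem168a, with 65 and 41 UMIs, at 4.73 and 3.66 CPM. Thus 1 neighbour was past 1.5-fold higher and 1 lower, where 5.79% and 7.11% of all features were. None of the 2 gpr27 neighbours or the 4 gpr173 neighbours with enough UMIs was past 1.5-fold.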

How the data were processed

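The deposited values are UMI counts per feature and barcode, written without a cell filter by Cell Ranger 7.1.0, per the file headers. The submitters' processing notes also name Seurat and the build GRCz11, and no annotation release was given in the sources used here. Libraries were made with a 10x Genomics 3′ kit (v3) from 50000 sorted cells each, per the labels' protocols. The control library held 19368218 UMIs, 71.0% of them in cells, and the knockout library 17646062, 63.6% in cells.

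Cells were filtered as stated and gated on markers seen and marker UMIs, with at least 10 marker UMIs per 10000. Cells passing more than 1 specific gate were set apart, immature cells were called before granule cells, and microglia-like and radial glia-like cells were joined. The gate thresholds were set after marker counts had been seen, without the members. Cell group names were made here from marker genes. Doublets were not removed, and an alternative left out the highest Scrublet scores (scanpy 1.11.5). Sums were scaled to CPM. Levels carry exact Poisson, shares exact Clopper-Pearson and ratios exact conditional binomial intervals at 95%, in Python 3.11.15 with scipy 1.17.1. With 1 library per genotype no p-value was computed. Gene-wide ratios had 0.5 UMIs added and genes needed at least 100 UMIs. Named genes were the 5 highest and 5 lowest by the smaller quintile ratio of both libraries with the same sign, the 5 most alike per member, and per list the 4 most counted; 1 gene among the 5 highest is not reported here. Gpr153, gpr37b, gpr78b and gpr26, the other receptors past 1.5-fold, and arr3a, gnai3 and gnat1 were named after their values were seen. Neighbours came from a gene table of assembly GRCz12tu, used for order only. The ratio and its interval were tested on simulated Poisson counts summed per library, which is the model the interval assumes. No variation between cells or fish was simulated, so that run cannot show how well the interval covers such variation. The members, lists, subsets and gates were chosen with earlier results of these data known.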

Additional observations from a re-analysis of the deposited data

Results flagged for a closer look

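MCherry-NTR, an added sequence that none of the comparisons above used, had a higher level in the knockout than in the control library in a pair of gates, which is why it is given here. In uts1 otofa cells it had 135 UMIs, 304 CPM, in the control and 118 UMIs, 434 CPM, in the knockout library, a log2 ratio of 0.51 (0.15 to 0.88). In GABAergic neuron-like cells it had 179 UMIs, 279 CPM, and 101 UMIs, 406 CPM, a log2 ratio of 0.54 (0.18 to 0.90). These GABAergic UMIs lay in 8 control and 4 knockout cells, and the uts1 otofa UMIs in 16 and 15 cells, so few cells decide both ratios and the intervals do not cover that. In cells that passed no gate the level was higher too (139 and 200.3 CPM, a log2 ratio of 0.52), but with the knockout UMIs in 6 of 426 cells (1.41%) and the control UMIs in 27 of 561 (4.81%), so the share of cells went the other way. The log2 ratio was -1.05 (-1.19 to -0.92) over all cells, -2.59 (-3.24 to -2.00) in granule-like cells and -1.37 (-1.67 to -1.08) in gsg1l lmx1al cells, which held 814 of the 1531 control UMIs. The difference between gates was not tested. Barcodes under 100 UMIs held it at 64.2 and 11.7 CPM. Its transgene was not given in the sources used here.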

How the results depend on the processing

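Of 84 recomputed values, 71 were classed as kept and 13 as moved. Ratios and co-detection were read against the counting interval, which the gene list counts do not have. Among these counts, orphan receptors went from 5 past 1.5-fold to 4 past 2-fold and were classed as kept. No value whose interval left out no change turned its direction. The gpr27 ratio in granule-like cells (0.04) went to -0.02 with a stricter gate, and knockout co-detection (1.07) to 0.94 both with that gate and when thinned to 2000 UMIs, all with intervals that include no change. The log2 ratio of H2B-mGL over all cells (1.08) moved to 1.103 with a minimum of 2000 UMIs and 1000 genes, 1.07 with 500 UMIs and 250 genes, 1.099 in CPM without the added sequences, 1.09 with free RNA subtracted and 1.04 without the 10% of cells richest in immediate early genes. In granule-like cells (1.03) it moved to 1.05 with a stricter gate, 1.05 with 2000 UMIs, 1.05 without the added sequences and 1.00 without those cells. In habenula neuron-like cells (2.35) it moved to 1.77 in kiss1 cells alone, an alternative chosen after seeing the data. The gpr85 ratio over all cells ranged from -0.44 to -0.35 and in granule-like cells from -0.51 to -0.43. At 200 UMIs per gene the count past 1.5-fold went from 1 to 0 for arrestins and kinases and from 2 to 1 for G protein alpha subunits, which also gave 1 past 2-fold. Without the 8 shared barcodes, also chosen after seeing the data, the ratios were -0.42 for gpr85 and 1.08 for H2B-mGL. No paired analysis was possible because each genotype had 1 library. Leaving out a library was likewise not possible. Depth limits gpr173, the smaller gates and per-cell gpr85, which was seen in 31.3% of control cells.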
